A study of Mus musculus with 12 samples.

Results

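The nuclear genes for the subunits of the mitochondrial respiratory chain and ATP synthase were followed through oxygen-glucose deprivation (OGD) in mouse cortical cultures that carried a miR-29 (miR-29c) or an empty lentivirus. Genes were taken by symbol: Nduf subunits for complex I, Sdh for complex II, Uqcr for complex III, Cox4 to Cox8 for complex IV and Atp5 for complex V, leaving out the Ndufaf assembly factors and symbols marked as pseudogenes. This gave 78 of the 12145 genes in the count table: 37 for complex I, 4 for complex II, 8 for complex III, 13 for complex IV and 16 for complex V. All 78 passed the filter on low counts. Levels are given as CPM, read counts scaled to the library size with TMM factors, and are compared between samples of 1 gene, not between genes.

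The respiratory chain passes electrons from NADH, through complex I, and from succinate, through complex II, to complex III and on to complex IV, which reduces oxygen. Complexes I, III and IV pump protons across the inner mitochondrial membrane, and complex V uses the gradient to make ATP. Most subunits come from nuclear genes and are imported, while a few come from the mitochondrial genome. Complexes I, III, IV and V need both sets, and complex II needs nuclear genes alone. Neurons depend on this pathway for most of their ATP, and it stops when oxygen is withdrawn.

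Cultures were made from cortex of C57BL6 mouse embryos (E16.5-E17.5) and were infected at a total multiplicity of infection of 2. The OGD-miR-29 group (n = 3) and the OGD-empty group (n = 3) had 3 h without oxygen and glucose and 4 h of recovery. The sham-miR-29 group (n = 3) and the sham-empty group (n = 2) were rinsed in the same buffer under normal oxygen. Every culture carried a lentivirus, so no uninfected cells were compared, and the sources used here do not name the promoter that drove miR-29. Replicates were cultures dissected on different days.

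Summed counts were 1337564 to 6616920 per library, of which the rows of the mitochondrial genome made up 57.6% (OGD-empty replicate 2) to 84.1%, and the respiratory chain genes had 2784 to 15464 counts in all. The values given for replicate 3 of sham-empty summed to 22859 and had a Spearman correlation of 0.0438 to 0.0978 with the others across genes, against 0.632 to 0.941 among the others, so they are not read counts and were left out. All 6 neuron markers were measured, with a summed level of 584 to 701 CPM in OGD-miR-29, 938 to 1215 CPM in OGD-empty, 684 to 885 CPM in sham-miR-29 and 714 to 790 CPM in sham-empty. The astrocyte marker Gfap was not analysed here, and 0 of 5 endothelial and 0 of 6 muscle markers were measured. In bulk RNA, fewer cells of a type and less RNA per cell cannot be told apart.

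The miRNA and its matches are shown first, because the virus was the variable. The mature strands of the miR-29 family (RefSeq, GRCm38.p6) share 1 seed, bases 2 to 8, which is in capitals. The labels name miR-29c as the one the virus carried, and miR-29a and miR-29b are shown to compare the seed.
miR-29a-3p: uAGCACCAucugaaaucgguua
miR-29b-3p: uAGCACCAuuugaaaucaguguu
miR-29c-3p: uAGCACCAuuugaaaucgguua
The letters complementary to the seed, TGGTGCT, were found in the 3′ UTR (GENCODE M21) of 3 of 76 respiratory chain genes with an annotated 3′ UTR (3.95%), against 17.9% of the 10162 genes in the table with one. The 3′ UTRs of the respiratory chain genes were shorter, with a median of 263 bases against 1504. The longest annotated 3′ UTR of each gene was searched, and whether the cultures expressed that form was not tested. Those with a match had 4255 bases in Atp5g1, 1646 in Ndufb8 and 2639 in Sdhc. The matches are printed with their surroundings and with the matching letters in capitals. They lay in Atp5g1, which encodes the c subunit of the ATP synthase rotor ring, in Ndufb8, an accessory subunit of complex I, and in Sdhc, a membrane anchor of complex II.
Atp5g1, first match: ccatgccagtccTGGTGCTggagtctac
Atp5g1, second match: gggtaatgatgtTGGTGCTttgtcactt
Ndufb8: agacactgcatgTGGTGCTcagacattc
Sdhc: gtgctttgtttgTGGTGCTaggggtcaa

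Promoters were compared next, over 250 bases before to 50 bases after the annotated start (RefSeq, GRCm38.p6), for the 65 of 78 genes with an entry. The motif of NRF1, a regulator of nuclear genes for mitochondrial proteins, was searched on both strands and was found in 15 of 65 (23.1%), against 11.8% of 8415 genes of the table and 5.19% of 27025 promoters of the same length. The ETS motif CCGGAAG, which the GABP factor binds, was found in 16 (24.6%), against 19.8% and 9.93%. The YY1 motif AAGATGGC was found in 11 (16.9%), against 5.50% and 3.19%. A match to one of these 3 was present in 36 of 65 (55.4%), against 32.5% of the genes of the table. The GC box GGGGCGGGG was found in 9 (13.8%), against 25.3%, and the CRE TGACGTCA in 4 (6.15%), against 3.82%. All motifs were searched on both strands, none of them contains another, and a match describes the letters only. One gene per complex is printed over the 120 bases before its start, 5′ to 3′ on the gene's strand, with the matches in capitals (CTTCCGG is the ETS motif and CCCCGCCCC the GC box read on the other strand). They were chosen among the genes whose values follow, because they show an NRF1 or ETS match close to the start.
Ndufa8 (complex I, chr2:36049339-36049458, minus strand): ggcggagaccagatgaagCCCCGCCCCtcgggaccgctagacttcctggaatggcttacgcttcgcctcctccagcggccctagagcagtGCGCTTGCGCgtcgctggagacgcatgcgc
Sdhd (complex II, chr9:50603850-50603969, minus strand): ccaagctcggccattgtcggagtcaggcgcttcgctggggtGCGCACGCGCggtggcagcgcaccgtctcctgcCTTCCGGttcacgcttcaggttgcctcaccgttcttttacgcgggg
Uqcrh (complex III, chr4:116075071-116075190, minus strand): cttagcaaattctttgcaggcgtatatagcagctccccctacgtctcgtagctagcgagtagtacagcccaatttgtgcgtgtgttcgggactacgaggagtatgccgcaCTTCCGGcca
Cox6b1 (complex IV, chr7:30626115-30626234, minus strand): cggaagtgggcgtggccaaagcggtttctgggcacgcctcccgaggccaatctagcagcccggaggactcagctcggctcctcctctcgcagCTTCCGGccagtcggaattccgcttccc
Atp5k (complex V, chr5:108434400-108434519, minus strand): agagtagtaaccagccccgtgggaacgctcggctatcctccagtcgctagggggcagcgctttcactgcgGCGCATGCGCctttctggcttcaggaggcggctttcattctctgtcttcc

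Levels were followed over the 11 libraries by complex. The median over the 78 genes, of each gene's log2(CPM + 1) minus its own mean, was 0.299, 0.293 and 0.573 in the OGD-miR-29 libraries, −0.588, −0.621 and −0.579 in OGD-empty, 0.130, −0.193 and 0.211 in sham-miR-29, and 0.296 and 0.183 in sham-empty. In each complex the 3 OGD-empty libraries lay below all other libraries, while the place of sham-empty differed. In complex II it was at −0.026 and 0.092, with OGD-miR-29 at 0.393 to 0.775, and in complex III at 0.405 and 0.285, with OGD-miR-29 at 0.296, 0.129 and 0.522. No test compared the complexes. The mean CPM of OGD-empty was the lowest of the 4 group means for 70 of the 78 genes, and that of OGD-miR-29 was the highest for 54. This order was not counted over all genes. A single library, OGD-miR-29 replicate 3, held the highest value of the 11 libraries for 42 of the 78.

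**Figure D1:**
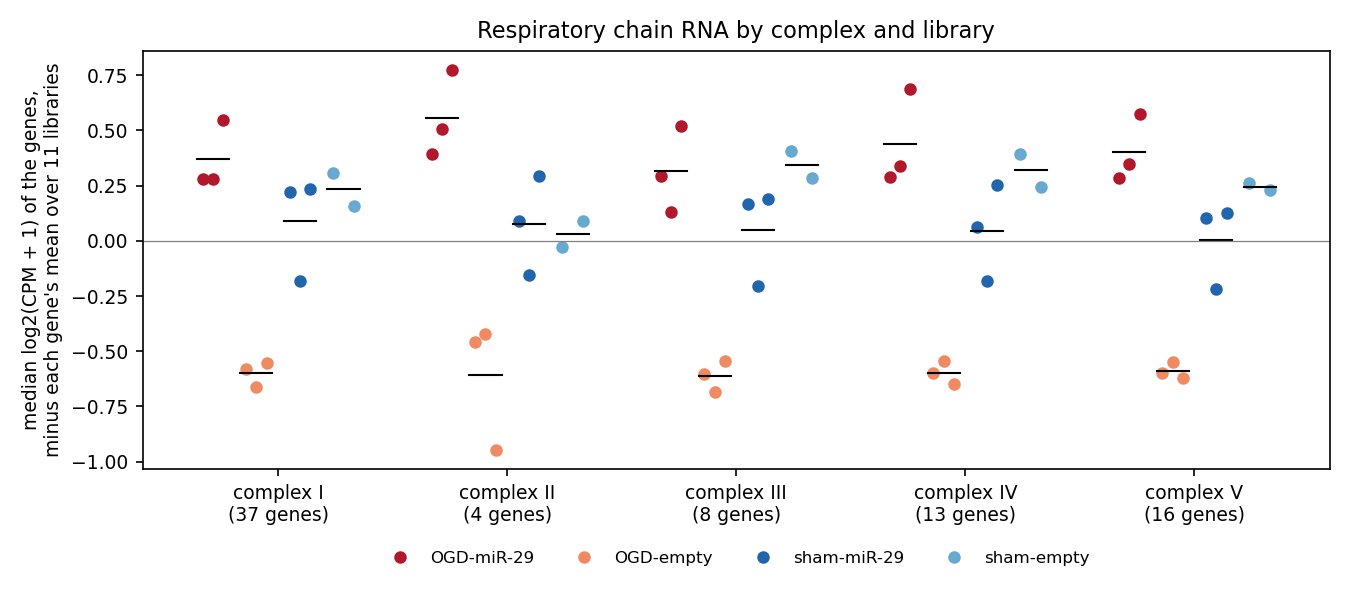
Median over the genes of each complex of log2(CPM + 1) minus each gene's mean over 11 libraries (vertical axis), by complex (horizontal axis); points are libraries and bars are group means. The 3 OGD-empty libraries lie lowest in every complex, with medians over all genes of −0.588, −0.621 and −0.579.

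The first question is how cultures with the miR-29 virus differed from cultures with the empty virus after OGD. Of the 78 genes, 64 were higher in OGD-miR-29 and 0 were lower (edgeR's quasi-likelihood test, Benjamini-Hochberg adjusted p under 0.05 over 12119 genes), where 17.2% of all genes were higher and 19.9% lower (37.1% in all). The median log2 fold change was 1.08, against 0.02 over all genes. The groups did not overlap, with OGD-miR-29 higher, for 67 genes, against 25% of all genes (25.2% had it lower). By complex, 31 of 37 genes rose in complex I (median 1.12), 4 of 4 in complex II (1.20), 7 of 8 in complex III (1.12), 12 of 13 in complex IV (1.04) and 10 of 16 in complex V (1.02).

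In complex I, all 7 nuclear genes for the catalytic core rose, from Ndufs1 (log2 fold change 0.62 ± 0.23 SE) to Ndufv1 (1.26 ± 0.22), which carry iron-sulfur clusters and the flavin. Of the 30 other subunits, which surround the core, 24 rose. Grouping by role was done after the values were seen. Ndufa4, a small subunit now mostly assigned to complex IV, had 79.0, 68.9 and 75 CPM in OGD-miR-29, against 35.7, 28.5 and 39.7 CPM in OGD-empty (log2 fold change 1.10 ± 0.20, edgeR adjusted p = 0.000692). The groups lay far apart, and Ndufa4 has no other annotated gene within its region. Ndufb10, an accessory subunit of the membrane arm, had 31.1, 24.0 and 29.8 CPM in OGD-miR-29, against 8.49, 9.48 and 10.7 CPM in OGD-empty (1.60 ± 0.25, edgeR adjusted p = 0.000542). Again every OGD-miR-29 library was above every OGD-empty library, though Ndufb10 can share reads with Rps2. Further accessory subunits that rose were Ndufa8 (1.38 ± 0.33), Ndufa13 (1.37 ± 0.24), Ndufb7 (1.17 ± 0.20), Ndufb5 (1.16 ± 0.22), Ndufb3 (1.02 ± 0.34) and Ndufb9 (0.75 ± 0.20). The call of Ndufb3 was lost when OGD-empty replicate 1 (0.92) or OGD-miR-29 replicate 3 (0.81) was left out, with DESeq2 (adjusted p = 0.0506) and with the length trend described below removed (0.65, adjusted p = 0.125), and that of Ndufb9 was lost with that trend removed (0.298).

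Complex II, which is also succinate dehydrogenase of the citric acid cycle, is encoded by nuclear genes alone. Sdhb, its iron-sulfur subunit, had 37.7, 42.9 and 50 CPM in OGD-miR-29, against 17.6, 19.4 and 11.3 CPM in OGD-empty (log2 fold change 1.401 ± 0.247, edgeR adjusted p = 0.000634). The groups did not overlap, and the neighbour Atp13a2, which can share reads with Sdhb, was at 0.06 ± 0.23. The membrane anchors Sdhc (1.22 ± 0.23) and Sdhd (1.17 ± 0.22) rose by similar amounts, Sdhd having no other gene in its region. The flavoprotein gene Sdha had 50.3, 47.7 and 59.1 CPM in OGD-miR-29, against 38.3, 38.4 and 33.8 CPM in OGD-empty, a smaller difference (0.50 ± 0.18, edgeR adjusted p = 0.0377). Its adjusted p was 0.0751 with DESeq2, and the call was also lost when OGD-empty replicate 1, 2 or 3 was left out (0.53, 0.48 and 0.45) or OGD-miR-29 replicate 1 or 3 (0.55 and 0.41).

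In complex III, the core subunits Uqcrc1 (log2 fold change 0.85 ± 0.20) and Uqcrc2, and Uqcrfs1 (0.72 ± 0.23), the Rieske iron-sulfur protein, rose, the call of Uqcrfs1 being lost in 4 of 20 alternatives. Uqcrc2 had 51.6, 57.1 and 56.3 CPM in OGD-miR-29, against 28.7, 16.7 and 29.5 CPM in OGD-empty (1.12 ± 0.22, edgeR adjusted p = 0.000997). Uqcrh, the hinge protein, had 34.2, 33.5 and 51.4 CPM in OGD-miR-29, against 17.8, 20.3 and 12.9 CPM in OGD-empty (1.20 ± 0.23, edgeR adjusted p = 0.000966). Neither gene's groups overlapped. Uqcr10, a small subunit alone in its region, had 31.6, 25.2 and 51.0 CPM in OGD-miR-29, against 13.6, 19.9 and 15.6 CPM in OGD-empty (1.14 ± 0.27). Uqcrq, the ubiquinone-binding subunit, was the 1 gene of the 78 with a negative value (−0.26 ± 0.25, edgeR adjusted p = 0.429), with 23.2, 16.9 and 26.4 CPM in OGD-miR-29, against 31.0, 18.5 and 29.0 CPM in OGD-empty. Its groups overlapped, and the neighbouring Aff4, whose count was 2.42 times that of Uqcrq, fell (−0.78 ± 0.19).

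In complex IV, Cox4i1, the largest nuclear subunit in its widespread form, had 94.2, 111 and 138 CPM in OGD-miR-29, against 40.3, 52.4 and 40.2 CPM in OGD-empty (log2 fold change 1.37 ± 0.21, edgeR adjusted p = 0.000542). Cox6b1, which lies on the side where cytochrome c docks, had 60.6, 61.1 and 82.7 CPM in OGD-miR-29, against 27.5, 34.8 and 9.11 CPM in OGD-empty (1.48 ± 0.32, edgeR adjusted p = 0.00348). Both genes' groups lay apart, although OGD-empty replicate 3 was well below the other 2 for Cox6b1. Cox7b (1.25 ± 0.24), Cox6c (1.07 ± 0.21) and Cox8a (1.02 ± 0.20) rose as well. So did Cox7a1 (0.83 ± 0.28) and Cox8b (1.19 ± 0.25), known as forms of heart and skeletal muscle, which can share reads with Capns1 and Psmd13. The call of Cox7a1 was lost when OGD-empty replicate 2 or 3 or OGD-miR-29 replicate 1 or 2 was left out (0.65 to 0.82), with DESeq2 (adjusted p = 0.0545) and with the length trend removed (0.298, adjusted p = 0.437).

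In complex V 6 of 16 genes were not called, as many as among the 37 of complex I. The 6 include Atp5l2, a pseudogene in GENCODE M21, and Atp5sl, which entered by its symbol and was assigned to no part of the complex here. In the catalytic head and rotor stalk of complex V 4 of 5 genes rose. Atp5b, the catalytic beta subunit, had 387, 451 and 512 CPM in OGD-miR-29, against 210, 198 and 220 CPM in OGD-empty (log2 fold change 1.10 ± 0.21, edgeR adjusted p = 0.000946). The alpha subunit Atp5a1 rose by 0.98 ± 0.20. Atp5e, the epsilon subunit, had 23.2, 31.9 and 34.1 CPM in OGD-miR-29, against 9.42, 9.94 and 6.43 CPM in OGD-empty, the largest fold change of the 78 (1.73 ± 0.27, edgeR adjusted p = 0.000542). It can share reads with Tubb1, which rose by 1.21 ± 0.24. Of the membrane parts, Atp5k, the e subunit, had 21.3, 18.5 and 33.2 CPM in OGD-miR-29, against 7.72, 7.68 and 6.97 CPM in OGD-empty (1.67 ± 0.29, edgeR adjusted p = 0.000603), with Pde6b as a neighbour. In the peripheral stalk, which holds the head in place, Atp5h rose (1.37 ± 0.24) and Atp5o, the oligomycin-sensitivity subunit, had overlapping groups (0.05 ± 0.21, edgeR adjusted p = 0.869).

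**Figure D2:**
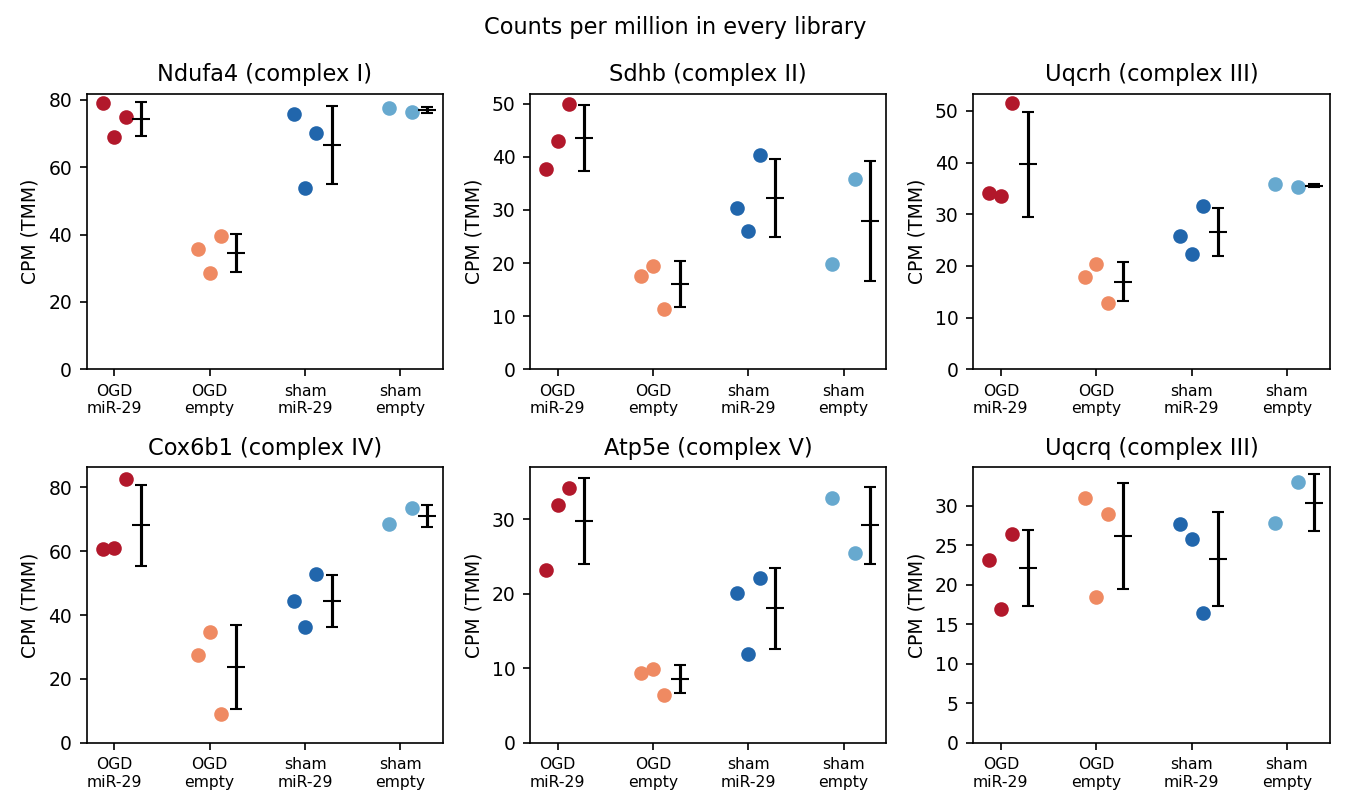
CPM (vertical axis, from 0) in each of 11 libraries by group (horizontal axis) for 6 genes; points are libraries, and the dash and bar beside them are the mean and SD. For 5 genes the OGD-miR-29 libraries lie above the OGD-empty libraries, and for Uqcrq the groups overlap (mean 22.2 ± 4.83 CPM in OGD-miR-29 and 26.2 ± 6.71 CPM in OGD-empty, SD, n = 3 each).

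Of the 3 genes with a miR-29 seed match in their 3′ UTR, Ndufb8 rose by 1.34 ± 0.25 and Sdhc by 1.22 ± 0.23 in OGD-miR-29 against OGD-empty. Atp5g1 had 7.72, 11.4 and 17.8 CPM in OGD-miR-29, against 5.10, 9.03 and 4.82 CPM in OGD-empty, so that the groups overlapped. It passed (0.93 ± 0.35, edgeR adjusted p = 0.041), but not in the fit with the length trend described below removed and a replicate block added (0.435, adjusted p = 0.306). In sham cultures no respiratory chain gene was called between the viruses, as given below. These genes were picked by their sequence.

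Of the 14 genes not called, chosen here after their values were seen, Ndufs4 (0.07 ± 0.27), Atp5d (0.09 ± 0.23), Ndufb2 (0.14 ± 0.21), Atp5l (0.27 ± 0.39), Atp5j (0.32 ± 0.24) and Ndufab1 (0.36 ± 0.19) were near Atp5o and Uqcrq, while Cox7c (0.91 ± 0.47) had a low count and a wide error. The 45 genes with a neighbour whose count was above 0.5 of their own had a median of 1.02 with 36 called, and the 33 without one a median of 1.12 with 28 called. The 10 genes alone in their region had a median of 1.12, with 9 called. Over the 45 pairs the gene's and the neighbour's log2 fold changes had a Pearson correlation of 0.62 and a Spearman correlation of 0.595. The pairs can hold the same reads, so this describes the counting as well as the genes. Among the pairs that moved apart, the neighbour Ankrd12 fell by 1.20 ± 0.21 while Ndufv2 rose by 0.98 ± 0.23, and Ndufs8 rose by 1.17 ± 0.33 beside Tcirg1 (−0.17 ± 0.27).

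**Figure D3:**
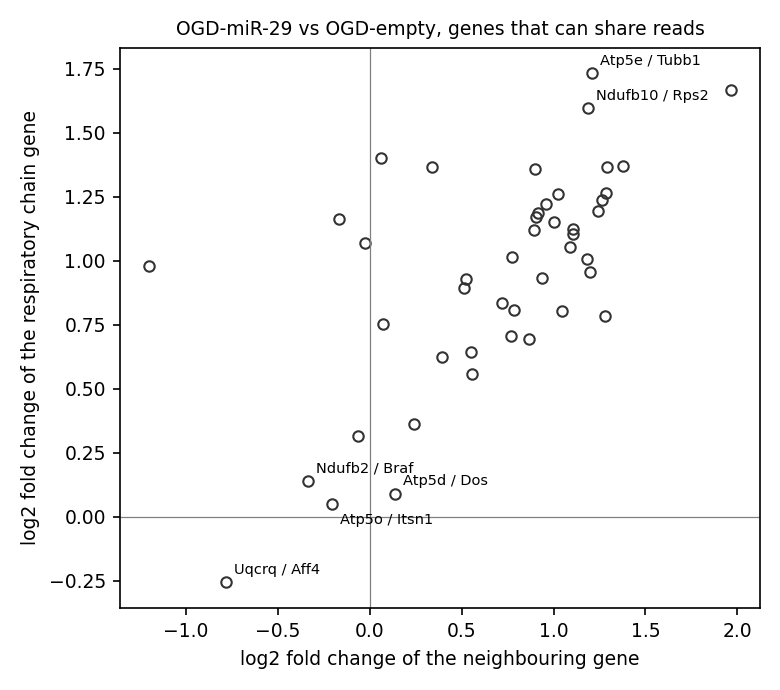
Log2 fold change of each of 45 respiratory chain genes (vertical axis) against that of the neighbouring gene that can share its reads (horizontal axis), OGD-miR-29 against OGD-empty; each point is a pair and 6 pairs are named. As examples, Uqcrq, Atp5o and Ndufb2 are near 0 and have neighbours below 0 (Aff4 at −0.78, Itsn1 at −0.21 and Braf at −0.34). The neighbours of other genes near 0 are not given, and Ndufv2 rose beside Ankrd12, which fell.

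Gene length moved with this comparison. Over 11925 genes the log2 fold change fell by 0.151 for each doubling of annotated gene length, and genes under 10 kb had a median of 0.52, against −0.20 for longer ones. Respiratory chain genes are short, with a median length of 7331 bases against 22969. The 53 under 10 kb had a median of 1.12 and the 25 longer ones 1.04, and 72 of the 78 lay above the median of genes in the same length bin (10 bins of equal gene number, added after the data were seen). With the trend of count on length removed from each library, 44 genes were higher and Uqcrq was lower (−0.76, edgeR adjusted p = 0.0129), with a median of 0.68, where 11.2% of all genes were higher. Atp5o, called higher in that fit (1.16), has 242585 bases in GENCODE M21 but 6408 in RefSeq, so its value there rests on the annotation. What part of the difference goes with length was not tested further.

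**Figure D4:**
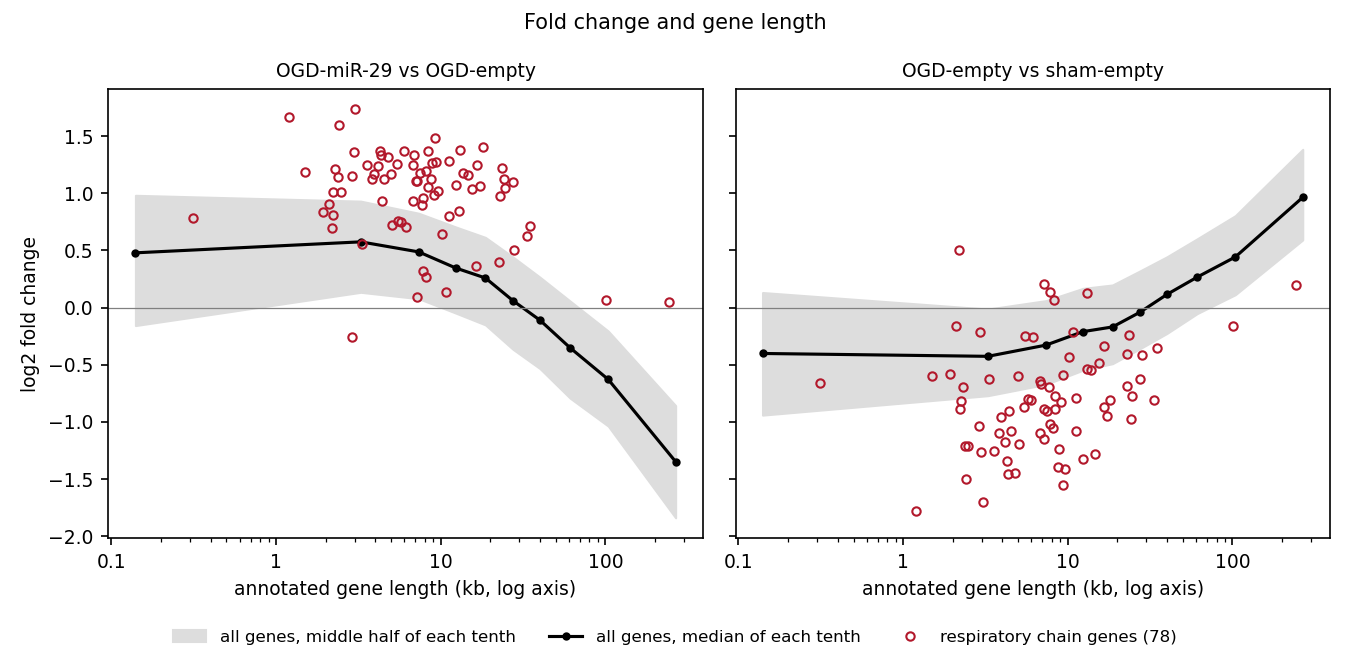
Log2 fold change (vertical axis) against annotated gene length in kb (horizontal axis, log scale); circles are 78 respiratory chain genes, the black line joins the medians of all genes in 10 length bins, and the grey band is the interquartile range of each bin. In OGD-miR-29 against OGD-empty 72 of 78 circles lie above the median of their bin, and in OGD-empty against sham-empty 69 lie below it.

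The second question is what OGD did in cultures with the empty virus. Here 28 of the 78 genes were lower in OGD-empty than in sham-empty and 0 were higher, where 3.61% of all genes were lower and 1.48% higher, 5.09% in all (edgeR's quasi-likelihood test). The median log2 fold change was −0.81, against 0.02 over all genes. Groups did not overlap, with OGD-empty lower, for 60 genes, against 21.6% of all genes (22% had it higher). By complex 10 of 37 fell in complex I (median −0.80), 1 of 4 in complex II (−0.61), 4 of 8 in complex III (−1.07), 6 of 13 in complex IV (−0.81) and 7 of 16 in complex V (−0.77). This comparison and the one above share the OGD-empty libraries.

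Atp5k had the largest fall, with 7.72, 7.68 and 6.97 CPM in OGD-empty, against 33.8 and 19.7 CPM in sham-empty (log2 fold change −1.78 ± 0.34, edgeR adjusted p = 0.00546). Atp5e had 9.42, 9.94 and 6.43 CPM in OGD-empty, against 32.8 and 25.5 CPM in sham-empty (−1.70 ± 0.31, edgeR adjusted p = 0.00474). In both genes the groups were well separated, and the 2 sham-empty libraries of Atp5k differed from each other by more than the 3 OGD-empty ones did. Atp5h (−1.34 ± 0.29), Atp5b (−0.89 ± 0.23) and Atp5a1 (−0.83 ± 0.22) fell too, while Atp5o (0.20 ± 0.24) did not pass.

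Ndufb10 had 8.49, 9.48 and 10.7 CPM in OGD-empty, against 32.8 and 21.4 CPM in sham-empty (−1.496 ± 0.291, edgeR adjusted p = 0.00681). Ndufa4, with 35.7, 28.5 and 39.7 CPM in OGD-empty, against 77.6 and 76.4 CPM in sham-empty, fell by 1.15 ± 0.22 on the log2 scale. Both lay apart from sham-empty. Ndufb3 (−1.41 ± 0.41), Ndufb5 (−1.28 ± 0.26) and Ndufb9 (−0.80 ± 0.23) were also called, Ndufb3 just under the threshold (edgeR adjusted p = 0.0496). The call of Ndufb3 was lost in 15 of 20 alternatives and that of Ndufb9 in 12 of 20. Ndufa13 was not (−0.88 ± 0.29, adjusted p = 0.0722), but was with the culture day as a replicate block (−0.97, adjusted p = 0.0352). Ndufa4l2, a relative of Ndufa4 known as a target of the hypoxia-inducible factor, had the highest value of the 78 and did not pass (0.50 ± 0.54); it was picked after its value was seen.

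In complexes III and IV the called genes included Uqcr10 (−1.21 ± 0.31), Uqcrfs1 (−1.19 ± 0.26), Uqcrh (−1.05 ± 0.27), Uqcrc2 (−0.98 ± 0.25), Cox6c (−1.32 ± 0.25), Cox8a (−1.21 ± 0.22), Cox7b (−1.10 ± 0.28) and Cox4i1 (−0.81 ± 0.24). Cox6b1 had 27.5, 34.8 and 9.11 CPM in OGD-empty, against 68.6 and 73.5 CPM in sham-empty, with no overlap (−1.55 ± 0.36, edgeR adjusted p = 0.0290). In complex II Sdhd fell (−0.90 ± 0.26), with 19.6, 19.9 and 13.9 CPM in OGD-empty, against 36.8 and 31.3 CPM in sham-empty. The calls of Cox4i1 and Sdhd were lost in 15 and 14 of 20 alternatives. The values of Sdhb (−0.81 ± 0.30), Sdha (−0.42 ± 0.21) and Sdhc (−0.24 ± 0.30) did not pass.

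The count of called genes in this comparison rests on 2 sham-empty libraries. It was 0 with replicate 1 of that group left out (0.0988% of all genes were then lower). With replicate 2 of that group left out it was 3 (75 lower and 1 higher of 12144 genes). Without OGD-empty replicate 3 it was 15 (231 lower and 136 higher of 12056 genes). The median stayed between −0.89 and −0.74 with any 1 library left out. With the length trend removed the count was 8 (1.4% of all genes lower), with a median of −0.54.

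**Figure D5:**
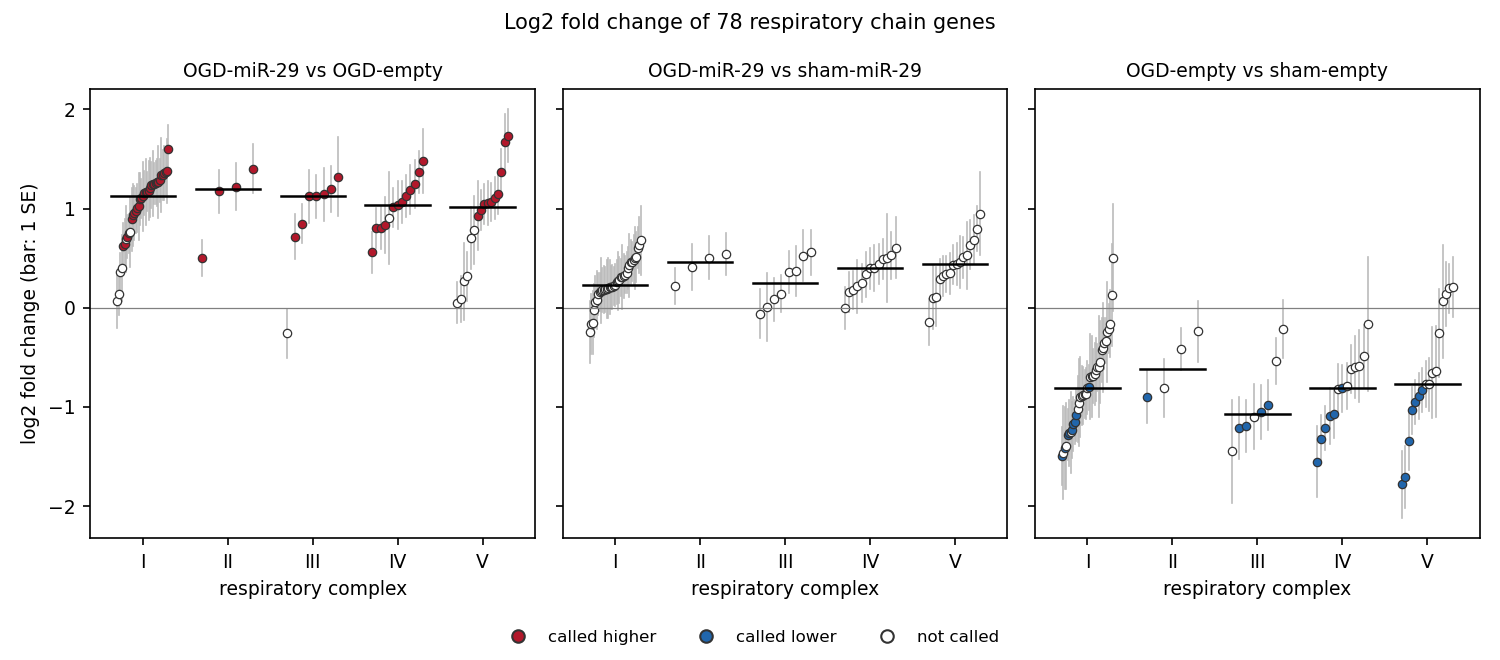
Log2 fold change (vertical axis) of 78 genes by complex (horizontal axis) in 3 comparisons; points are genes, grey bars 1 SE, black bars medians, and filled points are genes called at an edgeR adjusted p under 0.05. Called genes are all higher in OGD-miR-29 against OGD-empty (64) and all lower in OGD-empty against sham-empty (28), and 0 are called in OGD-miR-29 against sham-miR-29.

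The third question is what OGD did in cultures with the miR-29 virus. No respiratory chain gene was called in OGD-miR-29 against sham-miR-29 by edgeR, limma-voom or DESeq2, which gave an adjusted p to only 54 of the 78. By edgeR 0.0165% of all genes were called (2 genes), and 1111 genes, 17 of them respiratory chain genes, were under an unadjusted p of 0.05. The median was 0.32, and 71 of the 78 values were above 0, from −0.25 ± 0.31 for Ndufa12, an accessory complex I subunit, to 0.95 ± 0.42 for Atp5l, the g subunit of ATP synthase. Medians by complex were 0.23 for I, 0.46 for II, 0.25 for III, 0.40 for IV and 0.44 for V. The groups did not overlap, with OGD-miR-29 higher, for 24 genes, against 8.19% of all genes (8.69% had it lower), and 10 of the 24 were in complex V. Atp5h had 16.9, 19.3 and 18.3 CPM in OGD-miR-29, against 9.86, 8.84 and 12.1 CPM in sham-miR-29 (0.80 ± 0.23, edgeR adjusted p = 0.427). Atp5l had 5.33, 3.94 and 4.33 CPM in OGD-miR-29, against 2.65, 1.92 and 2.57 CPM in sham-miR-29, without overlap but at few reads. Ndufa12 and Atp5l were picked after their values were seen.

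The fourth question is whether the viruses differed without OGD. In sham-miR-29 against sham-empty 0 genes of the 78 were called, and 0% of all genes, by edgeR, DESeq2 and limma-voom. Of all genes 405 were under an unadjusted p of 0.05, 5 of them respiratory chain genes. The median was −0.16, and the values ran from −0.82 ± 0.39 for Ndufb3 to 1.24 ± 0.47 for Ndufa8, both picked after their values were seen. Ndufa8 had 6.45, 11.5 and 15.9 CPM in sham-miR-29, against 7.96 and 2.89 CPM in sham-empty, so that the groups overlapped. The groups did not overlap for 24 genes with sham-miR-29 lower (11.9% of all genes) and for 5 with it higher (10.6%).

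The difference between the OGD effects under the 2 viruses was tested as an interaction, the OGD effect with miR-29 minus that with the empty virus. It was called for 36 genes, all positive, where 4.72% of all genes were positive and 3.66% negative (8.38% in all), with a median of 1.19 against −0.03 over all genes. The counts were 12 of 37 in complex I, 2 of 4 in complex II, 5 of 8 in complex III, 8 of 13 in complex IV and 9 of 16 in complex V. Values were largest for Atp5e (2.39 ± 0.40, edgeR adjusted p = 0.00663), Atp5k (2.24 ± 0.43), Cox6b1 (2.16 ± 0.48) and Atp5h (2.14 ± 0.37). Uqcrq (0.15 ± 0.38), Atp5o (0.09 ± 0.32) and Ndufa8 (0.14 ± 0.60) did not pass. Atp5o did in the fit with the length trend removed and a replicate block added (1.232, adjusted p = 0.00978), a value that rests on its annotated length. Ndufb7 (0.93 ± 0.30, adjusted p = 0.0565) and Cox8b (1.00 ± 0.39, adjusted p = 0.0998) passed only with the replicate block (adjusted p = 0.0481 and 0.0412). The count was 3 with replicate 1 of sham-empty left out, where 48 of all genes were positive and 16 negative. It was 7 with replicate 2 of sham-empty left out (89 positive and 4 negative) and 19 with sham-miR-29 replicate 2 left out (221 and 87). With the length trend removed it was 15, where 2.41% of all genes were positive.

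Genes that work with the chain were followed from lists, to be read against the 17.2% of all genes that were higher and the 19.9% that were lower in OGD-miR-29 against OGD-empty, and against an all-gene median of 0.02. Of 4 measured genes for the ADP/ATP carriers, the phosphate carrier and the ATP synthase inhibitor, all 4 rose in OGD-miR-29 against OGD-empty (edgeR's quasi-likelihood test; median log2 fold change 1.06): Atpif1, the inhibitor (1.13 ± 0.22), Slc25a5 (1.08 ± 0.25) and Slc25a4 (1.04 ± 0.21), which exchange ADP for ATP, and Slc25a3, which imports phosphate (0.88 ± 0.21). Atpif1 (−1.16 ± 0.26) and Slc25a4 (−0.94 ± 0.23) fell in OGD-empty against sham-empty, and these 2 and Slc25a5 passed in the interaction. Of 18 measured genes of the citric acid cycle and electron carriers, 8 rose and 0 fell (median 0.42), among them Fh1 (1.11 ± 0.25), Suclg1 (1.07 ± 0.33), Dlst (0.88 ± 0.22), Cyc1 (0.87 ± 0.22), Idh3g (0.78 ± 0.29), Pdhb (0.67 ± 0.23) and Idh3b (0.59 ± 0.22). Fh1, fumarase, was the 1 gene of this list called in OGD-empty against sham-empty (−1.59 ± 0.29).

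Of 33 measured assembly factors, which build the complexes without being part of them, 7 rose and 3 fell in OGD-miR-29 against OGD-empty (median 0.35), a share not far from that of all genes, so these are values of single genes. Coa3 (1.68 ± 0.31), Surf1 (0.94 ± 0.22), Cox14 (0.83 ± 0.25) and Sco2 (0.77 ± 0.25) serve complex IV, Uqcc2 (1.32 ± 0.29) and Bcs1l (1.02 ± 0.27) complex III, and Foxred1 (0.89 ± 0.31) complex I. Those that fell were Cox16 (−1.87 ± 0.49) and Cox20 (−0.87 ± 0.22), which serve complex IV, and Ttc19 (−0.77 ± 0.22), which serves complex III. Of 13 measured regulators of mitochondrial biogenesis, 2 rose and 2 fell (median −0.12), no larger a share than the 17.2% and 19.9% of all genes. Esrra, a nuclear receptor that binds genes of this pathway (1.45 ± 0.24), and Peo1, the mitochondrial helicase (1.08 ± 0.39), rose, and the coactivators Ppargc1b (−2.17 ± 0.33) and Ppargc1a (−1.11 ± 0.31) fell. Esrra (−1.24 ± 0.28) and Uqcc2 (−1.30 ± 0.37) were lower in OGD-empty than in sham-empty. All values of these lists come from the fit without the length trend removed, and the part of gene length in them was not tested.

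For the 13 subunits encoded by the mitochondrial genome no call was made. In OGD-miR-29 against OGD-empty 0 of 13 were called by edgeR, where 37.1% of all genes were, and their median was −0.51. Of the 13, 0 were under an unadjusted p of 0.05, where 5738 of 12119 genes were. In OGD-empty against sham-empty 0 of 13 were called by edgeR, where 5.09% of all genes were, with a median of −0.28. Of the 13, 4 were under an unadjusted p of 0.05, where 2876 of 12119 genes were. For mt-Co1, a catalytic subunit of complex IV, the log2 fold changes were 0.10 ± 0.31 and −0.77 ± 0.34 in these comparisons, and for mt-Atp6 of complex V −0.51 ± 0.31 and −0.28 ± 0.34. In OGD-miR-29 against sham-empty 0 of 13 and 0% of all genes were called by edgeR. There the median of the 13 was −0.79, and 9 were under an unadjusted p of 0.05, where 841 of 12119 genes were. The rows of the 13 subunits can count the same reads, so they are not separate measurements, and their difference from the nuclear genes was not tested.

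Marker sums of some cell types also lay apart between these groups, and those of others overlapped. The neuron markers of OGD-miR-29 summed below those of OGD-empty, with 4 of 6 markers lower and 1 higher (Tubb3, 0.87 ± 0.20), and those of OGD-empty above those of sham-empty. The marker values hold the length trend described above, in which longer genes were lower in OGD-miR-29 against OGD-empty. The part of gene length in them was not tested. The 5 excitatory neuron markers summed to 23.2 to 29.9 CPM in OGD-miR-29, 38.5 to 39.7 CPM in OGD-empty and 30.8 to 31.3 CPM in sham-empty, so that OGD-empty was the highest group. Microglia markers, 3 of 6 measured, summed to 32.1 to 36.1 CPM in OGD-miR-29, 18.76 to 27.95 CPM in OGD-empty and 30.7 to 40.8 CPM in sham-empty, so that OGD-empty was the lowest. Markers of the oligodendrocyte lineage, 3 of 7 measured, summed to 8.58 to 9.73 CPM in OGD-empty, against 11.9 to 12.2 CPM in sham-empty. The 1 measured marker of proliferating cells, Mki67, had 2.76 to 6.25 CPM in OGD-miR-29, 8.04 to 8.18 CPM in OGD-empty and 0.579 to 3.98 CPM in sham-empty. The 5 measured astrocyte markers summed to 44.2 to 45.4 CPM in OGD-miR-29, 37.9 to 52.7 CPM in OGD-empty and 38.8 to 40.5 CPM in sham-empty, so that OGD-empty overlapped both. The 6 interneuron markers summed to 154 to 265 CPM in OGD-miR-29, 224 to 313 CPM in OGD-empty and 229 to 274.5 CPM in sham-empty, with overlap throughout. Of these, 2 were higher and 1 was lower in OGD-miR-29 against OGD-empty. Mural or fibroblast markers, 2 of 6 measured, overlapped too (5.88 to 8.65, 5.36 to 9.03 and 2.98 to 9.26 CPM in the same order). The part of these cell types in the respiratory chain results was not tested.

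The authors' deposited table for OGD-empty against sham-empty gave 69 of the 78 genes a negative and 9 a positive log2 fold change. Their median was −0.54, against 0.041 over all genes, and they ran from −1.63 for Ndufc1 to 0.52 for Atp5o. No member had a false discovery rate under 0.05 in the authors' deposited table (lowest 0.121), where 6 of 12145 genes did. The authors' deposited table for OGD-miR-29 against sham-empty gave 70 positive and 8 negative values, from −0.36 for Ndufb3 to 1.42 for Ndufa8. Their median was 0.36, against 0.033 over all genes. No member was under a false discovery rate of 0.05 there, where 2 of 12145 genes were. With edgeR's quasi-likelihood test of the 11 libraries, OGD-miR-29 against sham-empty had 0 members and 0% of all genes called (841 genes, 6 of them members, were under an unadjusted p of 0.05), and a median of 0.15. In that comparison the groups did not overlap for 19 members with OGD-miR-29 higher (13.5% of all genes) and 4 with it lower (17.1%).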

How the data were processed

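RNA was depleted of ribosomal RNA and made into TruSeq libraries, per the labels' protocols. The authors deposited raw read counts per gene; the submitters' processing notes list STAR 2.5.0a, featureCounts 1.4.3-p1, edgeR and mm10, with no order. Neither the strand setting nor the counting region is stated in what was used here. The authors' deposited comparison tables hold log2 fold changes, log2 CPM, a likelihood ratio score, p-values and false discovery rates, per the file headers. Of the per-sample columns, 0 were unmapped.

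All 12145 genes were fitted with edgeR 4.0.16 (R 4.3.3; quasi-likelihood F test, robust, TMM, filterByExpr) on 11 libraries with 4 group means. Of these 12119 were tested, and adjusted p is Benjamini-Hochberg over them. SE is the absolute log2 fold change over the square root of F. The scripts were tested on simulated data. Positions and lengths come from GENCODE M21 (GRCm38), where 11356 symbols matched directly, 592 through an older symbol and 197 not at all. A neighbour is a gene within a gene or 10 kb downstream of it. Where reads count for both, the gene is uncertain. Atp5l2 is a pseudogene in that annotation.

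The members and lists were chosen with earlier results of these data known. Named with values were, per complex, the 3 genes with the highest mean CPM, the 3 called genes with the largest change in each of the first 2 comparisons (mean count of at least 20), genes against the median, and muscle isoforms. Replicate numbers pair the libraries by the design text (cultures dissected on distinct days). Deviations of same-numbered libraries from their group means correlated at −0.09 to 0.232 (median 0.007, 15 pairs), and of others at −0.245 to 0.201. Alternatives were DESeq2 1.42.0, limma-voom 3.58.1, other scalings and filters, the compared groups alone, a replicate block, removal of a loess trend (span 0.5) on gene length, and each library left out. Values of some single genes are not reported here.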

Additional observations from a re-analysis of the deposited data

Results flagged for a closer look

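The OGD effect differed between the viruses, by the interaction test, for 36 of the 78 genes (edgeR's quasi-likelihood test), and 22 of these are among the genes named above. The value is the log2 OGD effect with the miR-29 virus minus that with the empty virus. In complex I it was 1.84 for Ndufb3, 1.68 for both Ndufb5 and Ndufb10, 1.35 for Ndufa13, 1.31 for Ndufa4 and 1.02 for Ndufb9. In complex II it was 1.45 for Sdhd and 1.22 for Sdhb. Complex III gave 1.74 for Uqcr10, 1.61 for Uqcrh, 1.34 for Uqcrc2 and 1.28 for Uqcrfs1. Complex IV gave 2.16 for Cox6b1, 1.48 for Cox6c, 1.46 for Cox8a, 1.43 for Cox7b and 1.298 for Cox4i1. Complex V gave 2.39 for Atp5e, 2.24 for Atp5k, 2.14 for Atp5h, 1.23 for Atp5b and 1.15 for Atp5a1. All depend on 2 sham-empty libraries. Of 19 alternatives, the call was lost in 13 for Sdhb, 9 for Ndufb9, 7 for Ndufb3, 6 for Ndufa13 and Uqcrfs1, and 0 to 5 for the others, with 0 for Atp5e and Atp5h. For Ndufa13 these include the fits with the length trend removed (adjusted p = 0.105), without sham-miR-29 replicate 2 (0.0707) and without OGD-miR-29 replicate 3 (0.0695).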

How the results depend on the processing

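Depth was low, with a median of 9 to 59 counts per gene and library, and sham-empty had n = 2, so calls that use it are the least certain. Counts of called genes are given here with the count over all genes in the same direction in brackets. In OGD-empty against sham-empty (28 lower, main fit) they were 15 (192 of 9247) in a fit of only these groups, where 68 members were tested. They were 8 (167) with the length trend removed, 14 (283) with that and the replicate block, and 0 (12) to 32 (445) with 1 library left out. The main fit had 438 of all genes lower. In the interaction (36 positive, main fit) they were 15 (287) with the length trend removed and 3 (48) to 38 (653) with 1 library left out, against 572 of all genes in the main fit. In OGD-miR-29 against OGD-empty (64 higher, 0 lower) they were 55 (1491) to 64 (2213) higher with 1 library left out. There 1 was lower with the length trend removed, with and without the block. Without OGD-empty replicate 2, the library with the lowest mitochondrial share, the counts were 21 (338), 60 (1851) and 36 (683). Medians without the length trend were −0.54, 0.68 and 0.80, and with the replicate block added −0.57, 0.68 and 0.86, and over the 10 genes alone in their region −1.11, 1.12 and 1.38. With the replicate block alone, for the paired culture days, 42 genes were lower in OGD-empty, 64 were higher in OGD-miR-29 against OGD-empty and 45 were positive in the interaction. Over all 12119 genes tested, 680 were then lower and 689 higher in OGD-empty. In OGD-miR-29 against OGD-empty 2154 were higher and 2530 lower, and in the interaction 888 were positive and 973 negative. Among the named genes the block added the calls of Ndufa13, Ndufb7 and Cox8b given above and changed no other call.

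Signs changed only for named values that had not passed, and the cause was not tested. With the length trend removed, without and with the block, OGD-empty against sham-empty gave Uqcrq 0.22 in both and Atp5o −0.60 and −0.68, and the interaction gave Ndufa8 −0.22 and −0.13 and Uqcrq −0.40 and −0.41. With 1 library left out, OGD-empty against sham-empty ranged from −0.381 to 0.024 for Uqcrq, −0.006 to 0.502 for Atp5o and −0.55 to 0.88 for Ndufa8. OGD-miR-29 against sham-miR-29 ranged from −0.47 to 0.13 for Ndufa12, OGD-miR-29 against OGD-empty from −0.055 to 0.245 for Atp5o, and the interaction from −0.60 to 0.84 for Ndufa8, −0.084 to 0.323 for Uqcrq and −0.20 to 0.30 for Atp5o.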
